A study of Mus musculus with 15 samples.

Results

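The genes described here carry the unfolded protein response and the integrated stress response. They are 47 genes listed by name, chosen with earlier results of these data known. The set contrasts 24 genes of the endoplasmic reticulum (ER), which fold, sense or dispose of secretory proteins, with 23 genes that belong to the transcription factor ATF4 and its targets. Each gene was read from the brightest probe set that carries its symbol alone. Of the 47 genes, 46 had such a probe set and 45 were bright enough to be tested, out of 18194 genes on the array and 13174 tested. Gdf15 was not analysed here, and Slc7a11, a cystine transporter chain, stayed below the filter at log2 intensities of 3.82 to 4.41.

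The tissue was interscapular brown fat of adult male C57BL/6N mice of wild-type genotype, all on high-fat diet, with 5 animals per group and 1 array of total RNA per animal. The aFGFR1/KLB group (animals 41 to 45) received bFKB1, an agonistic antibody against FGFR1 and its co-receptor beta-Klotho (KLB), once into the abdomen at 10 mg/kg, and was sampled on day 5. The FGF21 group (animals 36 to 40) received the human hormone FGF21, the natural ligand of that receptor pair, at 1 mg/kg b.i.d., a daily dose of 2 mg/kg, for 5 days. The control group (animals 31 to 35) is labelled as control with no injected substance named. Dose, schedule and molecule therefore differed together between the treatments. The labels name no batch and no scan date.

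When unfolded proteins accumulate in the ER, its membrane sensors respond: IRE1 (gene Ern1) splices the mRNA of Xbp1, ATF6 is cut to release a transcription factor, and PERK (gene Eif2ak3) phosphorylates the initiation factor eIF2. Spliced XBP1 and ATF6 raise chaperones and degradation factors, whereas eIF2 phosphorylation slows translation in general and favours ATF4, which raises amino acid transporters and synthesis enzymes. Other kinases, which sense amino acid lack, haem lack, viral RNA or mitochondrial trouble, act on eIF2 as well, so ATF4 targets can move without ER chaperones. Brown adipocytes burn fuel in mitochondria for heat and secrete proteins such as adiponectin, so both arms are of interest in this tissue. An array measures total mRNA of a gene, so neither the splicing of Xbp1 nor the amount of ATF4 protein was measured.

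Values are log2 intensities, group values are means ± SD (n = 5 arrays per group), and differences are log2 fold changes ± SE from limma, adjusted by Benjamini-Hochberg over all 13174 genes, with a threshold of 0.05. The number of arrays limits the precision. The tissue carried its defining transcripts at high intensity in every animal, with Ucp1 at 14.52 to 14.82, Cidea at 14.19 to 14.58 and Adipoq at 14.06 to 14.23. Control 34 and FGF21 36 stood apart from the rest. The mean of 14 macrophage markers was 11.16 in FGF21 36 and 10.85 in control 34, against 8.56 to 10.08 in the other 13 arrays, and the mean of 14 fibroblast and collagen markers was 11.32 in FGF21 36 and 11.57 in control 34, against 9.48 to 10.57 elsewhere. The mean of 12 skeletal muscle markers was 4.95 to 13.01 with the antibody, 4.77 to 12.88 with FGF21 and 9.03 to 10.85 in the controls. Of the 12, 11 were below control with the antibody (median log2 difference −1.56) and 12 with FGF21 (median −1.53). None of the macrophage, collagen or muscle markers passed in any of the 3 comparisons. Of 11 brown adipocyte markers, 4 rose and 1 fell with the antibody, against 2.69% and 2.49% of all genes. With FGF21 2 of them rose and 1 fell, against 2.64% and 3.68%. Ucp1 was among those that rose with the antibody, by 0.19 ± 0.05 (adjusted p = 0.0494). In tissue RNA, fewer cells of a type and less RNA per cell cannot be told apart.

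Against control, 4 of the 45 tested genes passed with the antibody (8.89%), against 5.18% of all genes, and 4 passed with FGF21 (8.89%), against 6.32% of all genes. Slc3a2 and Dnajb9 rose with both treatments. Trib3 rose and Nupr1 fell with the antibody (2.49% of all genes fell), and Xbp1 rose and Psph fell with FGF21. These 6 genes are spread over the set: Dnajb9 and Xbp1 belong to the ER genes, and Slc3a2, Trib3, Nupr1 and Psph to the ATF4 genes. The other 39 tested genes passed in none of the 3 comparisons. With the arrays centred on 42 ribosomal protein genes, Slc3a2 alone passed with the antibody, and Slc3a2 and Xbp1 passed with FGF21. The share of all genes in that fit is not given here. Both comparisons use the same 5 control animals. Shares this near the background are not a result about the set as a whole. At an unadjusted p under 0.05, 10 genes were higher and 2 lower with the antibody, against 19.4% of all genes (9.31% higher and 10.1% lower), and 8 were higher and 4 lower with FGF21, against 20.4% of all genes (8.12% higher and 12.3% lower).

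**Figure D1:**
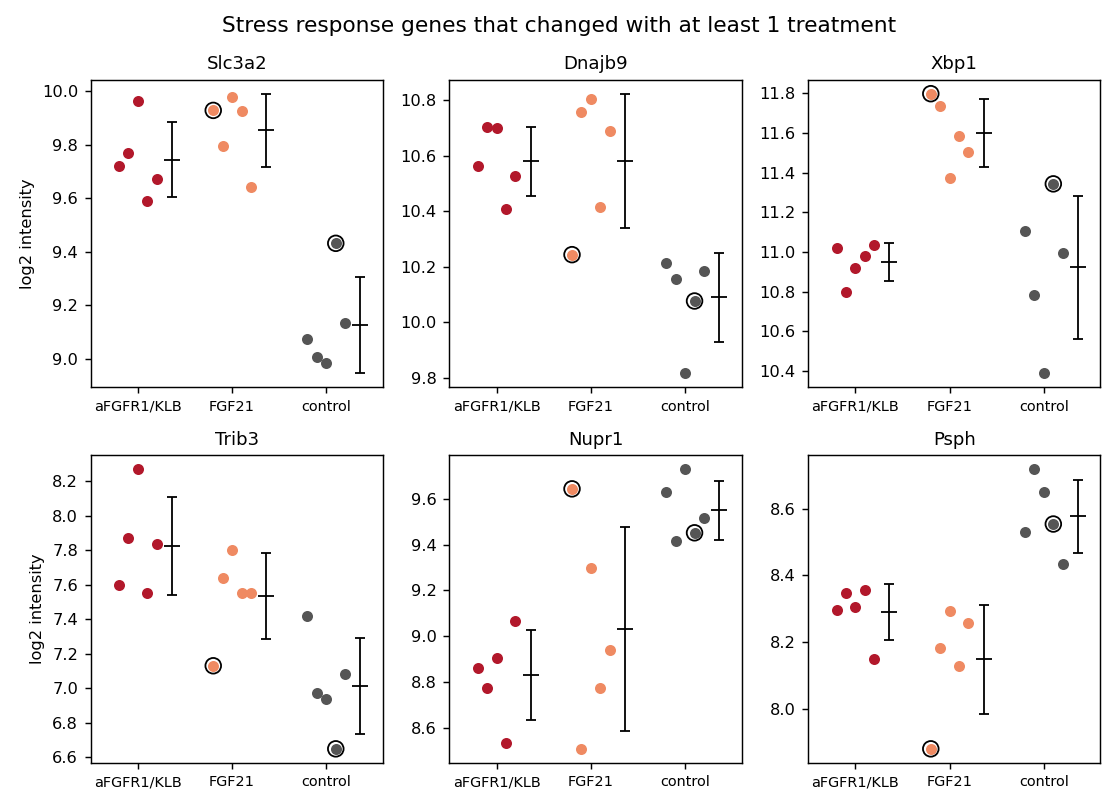
Log2 intensity (vertical axis) of the 6 genes that passed in at least 1 comparison with control, 1 point per animal, with the mean and SD as a bar beside each group of 5; the circles mark FGF21 36 and control 34, the arrays with the most macrophage and collagen transcripts. Slc3a2 lies above every control in all 10 treated animals, and Xbp1 lies above every control in the 5 animals given FGF21 alone.

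With all arrays, most genes of the ER folding machinery did not pass. Of the 15 chaperones and folding enzymes, 1 rose with the antibody and 1 with FGF21, in both cases Dnajb9, against 2.69% of all genes higher with the antibody and 2.64% with FGF21. Dnajb9 encodes ERdj4, a J-domain co-chaperone of BiP that holds back IRE1. Dnajb9 read 10.56, 10.70, 10.70, 10.41 and 10.53 in the animals given the antibody, 10.24, 10.76, 10.80, 10.41 and 10.69 in those given FGF21 and 10.21, 10.16, 9.82, 10.08 and 10.19 in the controls. Every treated animal lay above the highest control, with FGF21 36 closest to it. The log2 fold change was 0.49 ± 0.11 with the antibody (adjusted p = 0.0211) and 0.49 ± 0.11 with FGF21 (adjusted p = 0.0172), both about 1.41-fold. The antibody call was lost without aFGFR1/KLB 42, aFGFR1/KLB 43 or control 33, where the adjusted p reached up to 0.0617.

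Hspa5 encodes BiP, the ER Hsp70 whose mRNA is the classical readout of ER stress. Hspa5 read 12.15, 12.23, 12.15, 12.32 and 12.14 with the antibody, 12.43, 12.14, 12.22, 12.42 and 12.24 with FGF21 and 12.24, 12.16, 12.05, 12.59 and 12.23 in the controls, and the 3 groups overlapped. Its log2 difference from control was −0.06 with the antibody (95% interval −0.25 to 0.14) and 0.04 with FGF21 (95% interval −0.16 to 0.23). The upper ends of these intervals stand for 1.10-fold with the antibody and 1.17-fold with FGF21. The interval is narrow for most of the folding genes: over the 14 that did not pass, the median SE was 0.11 in either comparison. The widest belonged to P4hb, the beta subunit of prolyl 4-hydroxylase that also works as a disulfide isomerase, at −0.29 with the antibody (95% interval −0.88 to 0.29) and 0.21 with FGF21 (95% interval −0.37 to 0.80).

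Promoters of many ER chaperones carry the ER stress response element (ERSE), which ATF6 and XBP1 bind next to the factor NF-Y. RefSeq promoter windows of 300 bases (GRCm38.p6, 250 before and 50 after the start site) were found for 42 of the 47 genes, all but Hyou1, Manf, Atf6, Cth and Eif4ebp1. The letters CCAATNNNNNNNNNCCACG, read on both strands, occurred in 9 of 21 windows of ER genes (42.9%), in 0 of 24 windows of ATF4 genes and in 0.119% of all 32851 windows. The sites of 6 chaperones and enzymes are printed 5′ to 3′ on the gene's own strand with 10 bases on either side, the 5 letters at each end of the element in capitals. These sites were picked for the capital letters, which they therefore share on one strand or the other. They lie at chr2:34772015-34772053 (+ strand, Hspa5), chr10:86705628-86705666 and chr10:86705523-86705561 (both − strand, Hsp90b1), chr11:50325790-50325828 (− strand, Canx), chr8:84847065-84847103 (− strand, Calr), chr14:118937817-118937855 (+ strand, Dnajc3) and chr12:17266481-17266519 (+ strand, Pdia6).
Hspa5: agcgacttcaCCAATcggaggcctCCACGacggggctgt
Hsp90b1 first site: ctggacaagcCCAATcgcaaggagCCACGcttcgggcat
Hsp90b1 second site: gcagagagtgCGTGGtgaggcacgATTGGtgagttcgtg
Canx: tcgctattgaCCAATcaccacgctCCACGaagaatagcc
Calr: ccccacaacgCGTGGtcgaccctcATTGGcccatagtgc
Dnajc3: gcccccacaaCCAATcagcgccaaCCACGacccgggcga
Pdia6: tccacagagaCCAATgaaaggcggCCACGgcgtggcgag
The whole window of Hspa5 (chr2:34771840-34772139, + strand) shows the element in its setting, again in capitals.
Hspa5 promoter: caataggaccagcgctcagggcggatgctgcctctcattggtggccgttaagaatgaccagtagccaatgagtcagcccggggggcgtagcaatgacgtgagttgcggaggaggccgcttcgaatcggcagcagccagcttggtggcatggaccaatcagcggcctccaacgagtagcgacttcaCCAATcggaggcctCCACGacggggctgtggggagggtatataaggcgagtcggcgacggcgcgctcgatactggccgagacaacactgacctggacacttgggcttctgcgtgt
Of the 9 genes with this element, 0 passed in either comparison with control, where 5.18% of all genes passed with the antibody and 6.32% with FGF21. Their median log2 difference was 0.06 with the antibody (lowest −0.09, highest 0.31) and 0.03 with FGF21 (lowest −0.09, highest 0.24), beside −0.02 over all genes in each. At an unadjusted p under 0.05, Canx and Dnajc3 were higher with the antibody and Canx with FGF21. The probe set of Dnajc3 next in brightness did not share this, at −0.06 ± 0.08 with the antibody, while its dimmer ones were at 0.17, 0.16 and 0.28. With control 34 and FGF21 36 left out, 3 of the 9 (Hsp90b1, Calr and Canx) rose with each treatment, against 5.41% of all genes higher with the antibody and 6.77% with FGF21. These shares are not a matched background, since control 34 was the highest control for 18 of the 24 ER genes but for 31.4% of all genes. Of the 12 ER genes whose windows lacked the element, 2 rose with the antibody and 3 with FGF21 in that fit. Their medians were 0.13 with the antibody and 0.19 with FGF21, beside 0.16 and 0.09 for the 9. With the macrophage covariate, 1 of the 9 (Canx) rose with the antibody and 0 with FGF21, against 5.81% and 4.66% of all genes higher. The windows of Dnajb9 and Xbp1, the ER genes that passed, held neither this element nor its shorter form ERSE-II (ATTGG and CCACG set 1 base apart), which shares the end CCACG with it. A match is a run of letters and not a measured binding site, and letters outside these windows were not searched.

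Several chaperones changed their call with the samples included. Hsp90b1, which encodes the ER Hsp90 GRP94, read 11.22, 11.21, 11.24, 11.10 and 11.19 with the antibody, 11.43, 11.11, 11.32, 11.08 and 11.23 with FGF21 and 11.00, 10.91, 10.86, 11.79 and 10.90 in the controls. Control 34 was the highest of all 15 arrays, and the other 4 controls lay below every treated animal. With all arrays the log2 difference was 0.10 ± 0.15 with the antibody (adjusted p = 0.778) and 0.14 ± 0.15 with FGF21 (adjusted p = 0.646). Without control 34 and FGF21 36 it was 0.27 ± 0.06 with the antibody (adjusted p = 0.00922) and 0.27 ± 0.06 with FGF21 (adjusted p = 0.011). A dimmer probe set of Hsp90b1 was at 0.13 ± 0.13 with the antibody and 0.01 ± 0.13 with FGF21 on all 15 arrays. It was not fitted without those arrays.

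The lectin chaperones Canx and Calr, which hold glycoproteins during folding, behaved alike in this respect. Canx (calnexin) read 11.95, 11.98, 11.97, 11.96 and 11.88 with the antibody, 11.87, 11.83, 11.93, 11.90 and 11.87 with FGF21 and 11.72, 11.50, 11.30, 12.06 and 11.62 in the controls, again with control 34 above every other array and the other 4 controls below every treated one. Its log2 difference was 0.31 ± 0.10 with the antibody (adjusted p = 0.103) and 0.24 ± 0.10 with FGF21 (adjusted p = 0.204). Without both arrays it rose by 0.41 ± 0.07 with the antibody (adjusted p = 0.00328) and by 0.34 ± 0.08 with FGF21 (adjusted p = 0.00867). A dimmer probe set of Canx passed with the antibody on all 15 arrays, at 0.43 ± 0.11 (adjusted p over probe sets 0.0338), and the remaining one was at 0.36 ± 0.13 (adjusted p 0.121). Calr (calreticulin) differed by 0.13 ± 0.10 with the antibody on all arrays and rose by 0.23 ± 0.05 without both (adjusted p = 0.00872). With FGF21 it differed by 0.18 ± 0.10 on all arrays and rose by 0.21 ± 0.05 without both (adjusted p = 0.0139).

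Without control 34 and FGF21 36, 6 of the 24 ER genes rose with the antibody (25.0%), against 12.4% of all genes called and 5.41% called higher in that fit. They were Hsp90b1, Dnajb9, Calr, Canx, Sdf2l1, a luminal partner of ERdj chaperones, and Manf, a secreted ER stress protein. With FGF21 6 rose as well (25.0%), against 16.2% called and 6.77% called higher: Hsp90b1, Dnajb9, Calr, Canx, Sdf2l1 and Xbp1. Control 34 was the highest control for 18 of the 24 ER genes, but for 31.4% of all genes. Leaving it out lowers the control mean of those ER genes, so the shares over all genes are not a matched background in that fit. The median over the 24 ER genes was 0.13 with the antibody and 0.10 with FGF21 in that fit, whereas with all arrays it was 0.03 with the antibody and 0.04 with FGF21. Hspa5, Pdia3, Pdia4, Pdia6, P4hb, Hyou1, Dnajb11, Dnajc3 and Creld2 passed in neither fit. Sdf2l1 rose by 0.39 ± 0.11 with the antibody without both arrays (adjusted p = 0.036), against 0.19 ± 0.19 with all. With FGF21 it rose by 0.38 ± 0.12 without both (adjusted p = 0.039), against 0.31 ± 0.19 with all. Manf read 10.10, 10.46, 10.19, 10.35 and 10.15 with the antibody, 10.03, 10.00, 10.12, 10.07 and 10.08 with FGF21 and 10.06, 9.68, 9.79, 10.31 and 9.98 in the controls, and differed from control by 0.29 ± 0.10 with the antibody on all arrays (adjusted p = 0.132) and by 0.38 ± 0.09 without both (adjusted p = 0.0153).

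**Figure D2:**
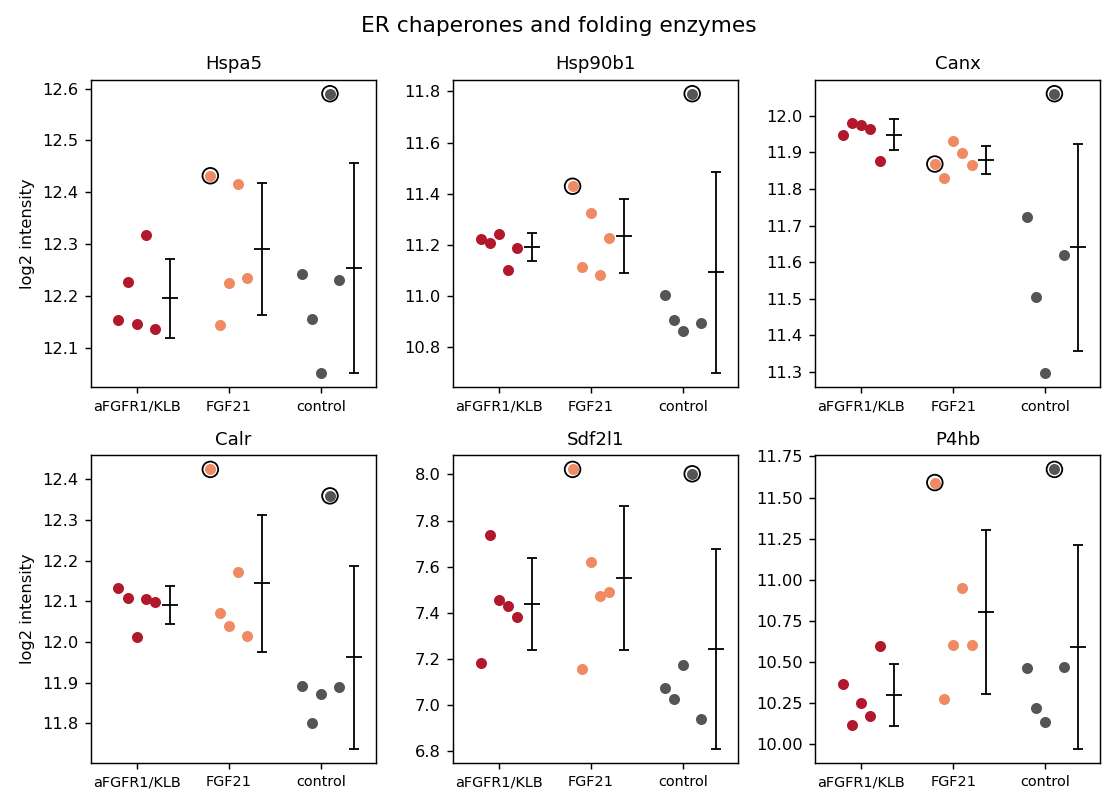
Log2 intensity (vertical axis) of 6 ER chaperones and folding enzymes, 1 point per animal, mean and SD beside each group of 5, with FGF21 36 and control 34 circled. Control 34 is the highest control for all 6 genes, and for Hsp90b1, Canx and Calr the other 4 controls lie below every treated animal. The share of all genes that separate in this way is not given here.

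Over the ER genes control 34 was the highest of the 5 controls for 18 of 24 and the lowest for 4, whereas over all genes it was the highest for 31.4% and the lowest for 42.6%. Its ER genes lay a median of 0.47 above the mean of the other controls, and its ATF4 genes a median of 0.11 below. FGF21 36 was the highest of its group for 14 of 24 ER genes and the lowest for 4, against 28.8% and 39.0% of all genes, with a median distance of 0.19. These are also the arrays with the highest macrophage and collagen marker means. With the macrophage mean as a covariate on all 15 arrays, 9 of the 45 genes passed with the antibody, against 12.7% of all genes in that fit, and 8 of the 45 with FGF21, against 10.3%. Of the 24 ER genes, Dnajb9, Canx, Manf and Herpud1 rose with the antibody (16.7%), against 5.81% of all genes higher, and Dnajb9 and Xbp1 with FGF21 (8.33%), against 4.66%. Hsp90b1, Calr and Sdf2l1, which passed without the 2 arrays, passed with neither treatment in this fit, and Canx did not pass with FGF21. The median of the ER genes was 0.03 with the antibody and −0.007 with FGF21. Of the 21 ATF4 genes, 3 rose (Atf5, Trib3 and Slc3a2) and 2 fell (Nupr1 and Psph) with the antibody (6.93% of all genes lower). With FGF21 3 rose (Trib3, Slc3a2 and Sesn2) and 3 fell (Nupr1, Phgdh and Psph), where 5.69% of all genes were lower. The part of these cells in the ER values was not tested further. Of the markers of antibody-secreting cells, Jchain was below the filter, at 5.31 in control 34 and 4.11 to 4.57 in the others, and Mzb1 passed the filter at 6.64 to 6.95.

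**Figure D3:**
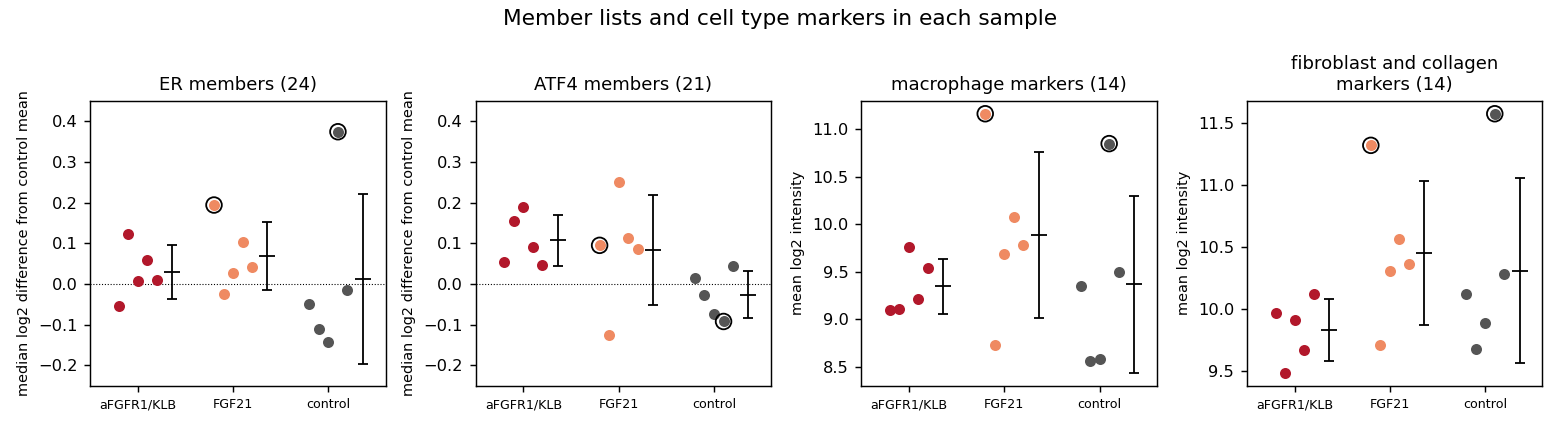
For each animal, the median over the 24 ER genes and over the 21 tested ATF4 genes of the log2 difference from the control mean (left panels), and the mean log2 intensity of 14 macrophage and of 14 fibroblast and collagen markers (right panels), with group mean and SD and with FGF21 36 and control 34 circled. The ER median was 0.37 in control 34 and −0.14 to −0.02 in the other controls, while the animals given the antibody lay between −0.05 and 0.12.

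Among the 3 sensors and Xbp1, Xbp1 alone passed, and with FGF21 alone. Xbp1 encodes the transcription factor made from IRE1-spliced mRNA, and its own mRNA is raised by ATF6 and by XBP1 itself. Xbp1 read 11.02, 10.80, 10.92, 10.98 and 11.04 in the animals given the antibody, 11.80, 11.73, 11.37, 11.59 and 11.50 in those given FGF21 and 11.11, 10.78, 10.39, 11.34 and 11.00 in the controls. Every animal given FGF21 lay above every animal of the other groups, and the antibody values fell within the range of the controls. The log2 fold change was 0.03 with the antibody (adjusted p = 0.945, 95% interval −0.27 to 0.33) and 0.67 ± 0.14 with FGF21 (1.60-fold, adjusted p = 0.0115). The FGF21 call was lost when only the 10 arrays of that comparison were fitted (adjusted p = 0.0618).

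Set directly against FGF21, the antibody gave Xbp1 values lower by a log2 difference of −0.65 ± 0.14 (95% interval −0.95 to −0.35), which missed the threshold across all genes (adjusted p = 0.0608). The exact permutation test of this gene alone gave a two-sided p of 0.00794, the smallest that 252 splits of 5 against 5 can give. The comparison was repeated on the other 3 probe sets of Xbp1, from the same arrays. On those next in brightness, the antibody differed from FGF21 by −0.65 ± 0.10 (adjusted p over probe sets 0.0104) and by −0.72 ± 0.12 (adjusted p 0.0162). On the dimmest, the difference was −0.37 ± 0.08 (adjusted p 0.0575). Against control, FGF21 gave 0.65 (adjusted p 0.00161), 0.72 (adjusted p 0.00278) and 0.26 (adjusted p 0.0764) on these 3 probe sets, while the antibody gave 0.002, 0.003 and −0.12. The call between the treatments was also made in 7 of 26 alternative settings, among them the fits without control 33 and without control 34, and its adjusted p ran from 0.00228 to 0.305 over them.

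**Figure D4:**
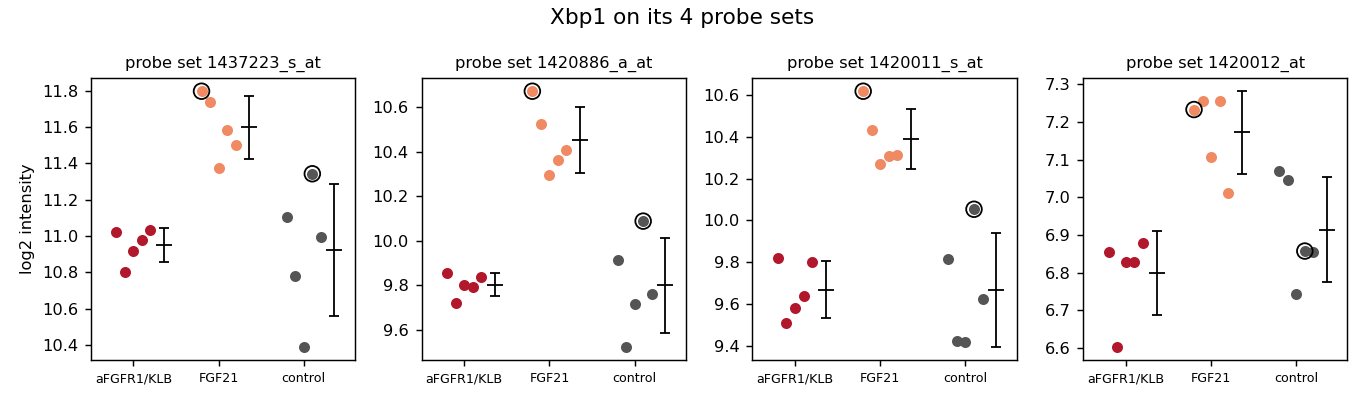
Log2 intensity (vertical axis) on the 4 probe sets that carry the symbol Xbp1, in order of brightness, 1 point per animal, mean and SD beside each group of 5, with FGF21 36 and control 34 circled. On the first 3 probe sets all 5 animals given FGF21 lie above all 10 others; on the dimmest they lie above the antibody animals and overlap the controls.

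The sensors themselves did not pass with either treatment. Ern1 (IRE1) averaged 7.98 ± 0.04 with the antibody, 8.14 ± 0.28 with FGF21 and 7.96 ± 0.29 in the controls. Eif2ak3 (PERK) averaged 8.23 ± 0.14 with the antibody, 8.24 ± 0.03 with FGF21 and 8.11 ± 0.18 in the controls. Atf6 averaged 9.31 ± 0.08 with the antibody, 9.23 ± 0.07 with FGF21 and 9.28 ± 0.08 in the controls. Their 95% intervals ran from −0.28 to 0.32 with the antibody and from −0.17 to 0.47 with FGF21. For Ern1 the highest arrays were FGF21 36 at 8.57 and control 34 at 8.38.

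None of the 5 genes of ER-associated degradation passed. Herpud1, a ubiquitin-domain protein of the ER membrane that assembles the degradation complex, came nearest. Herpud1 read 9.77, 10.07, 9.96, 9.89 and 9.99 with the antibody, 9.42, 9.94, 9.75, 9.47 and 9.77 with FGF21 and 9.70, 9.70, 9.74, 9.38 and 9.72 in the controls. The antibody animals lay above all controls, while the FGF21 animals overlapped the controls. The log2 difference with the antibody was 0.29 ± 0.10 (adjusted p = 0.123), and 0.30 ± 0.09 on its other probe set (adjusted p over probe sets 0.0828). Its promoter window is the only one among the 42 genes with a window that held both the short ERSE form and an ATF4 element, at chr8:94386367-94386397 and chr8:94386306-94386334 (+ strand), printed with the fixed letters in capitals.
Herpud1 ERSE-II: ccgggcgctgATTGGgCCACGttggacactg
Herpud1 ATF4 element: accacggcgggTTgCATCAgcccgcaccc
Edem1, a mannosidase-like protein, Sel1l and Syvn1, the core of the HRD1 ligase, and Derl3, a derlin, differed from control by −0.18 to 0.06 with the antibody and by −0.10 to 0.01 with FGF21. The other probe set of Edem1, nearly as bright, was at −0.22 ± 0.10 with the antibody and −0.23 ± 0.10 with FGF21 (adjusted p over probe sets 0.266 and 0.228). A dim probe set of Sel1l was at 0.26 ± 0.08 with FGF21 (adjusted p 0.0828), while its other dimmer ones were at −0.08, −0.08 and 0.03.

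In the ATF4 arm, Slc3a2 gave the largest response in relation to its error of all 45 genes. It encodes 4F2hc (CD98), the heavy chain that carries light chains of amino acid exchangers, the cystine transporter chain Slc7a11 among them, to the cell surface. Slc3a2 read 9.72, 9.77, 9.96, 9.59 and 9.67 with the antibody, 9.93, 9.79, 9.98, 9.93 and 9.64 with FGF21 and 9.07, 9.01, 8.98, 9.43 and 9.13 in the controls, and no treated animal overlapped a control. It rose by 0.62 ± 0.10 with the antibody (1.53-fold, adjusted p = 0.00265) and by 0.73 ± 0.10 with FGF21 (1.66-fold, adjusted p = 0.000707). Both calls held in all 26 alternative settings. The antibody differed from FGF21 by −0.11 (95% interval −0.32 to 0.10). The other measured gene of cystine and glutathione handling, Chac1, which breaks down glutathione, varied too much to be read: 7.72, 6.84, 6.67, 6.81 and 8.90 with the antibody, 9.19, 7.76, 7.62, 6.39 and 6.73 with FGF21 and 7.18, 6.59, 6.63, 6.55 and 6.90 in the controls. The highest arrays were aFGFR1/KLB 45 and FGF21 36. aFGFR1/KLB 41, FGF21 37 and FGF21 38 also lay above all controls, FGF21 39 lay below them and the other 4 treated animals lay among them. Each difference had an SE of 0.49.

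Atf4 itself read 10.87, 11.02, 11.01, 10.75 and 10.99 with the antibody, 10.74, 10.78, 11.32, 10.93 and 10.88 with FGF21 and 10.80, 10.69, 10.79, 10.35 and 10.66 in the controls. Control 34 was the lowest array, and the groups overlapped. Its log2 difference was 0.27 ± 0.11 with the antibody (adjusted p = 0.19) and 0.27 ± 0.11 with FGF21 (adjusted p = 0.179). Atf5, a related factor that governs mitochondrial stress genes, was at 0.45 ± 0.17 with the antibody (adjusted p = 0.147) and 0.07 ± 0.17 with FGF21, with control 34 the lowest array at 10.40. With the macrophage covariate Atf5 passed with the antibody, at 0.44 ± 0.14 (adjusted p = 0.0493).

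Trib3, a pseudokinase that ATF4 and CHOP induce and that feeds back on ATF4, rose with the antibody. Trib3 read 7.60, 7.87, 8.27, 7.55 and 7.83 with the antibody, 7.13, 7.64, 7.80, 7.55 and 7.55 with FGF21 and 7.42, 6.97, 6.94, 6.65 and 7.08 in the controls. All antibody animals lay above all controls, and FGF21 36 lay within the control range. The log2 fold change was 0.81 ± 0.16 with the antibody (1.75-fold, adjusted p = 0.011) and 0.52 ± 0.16 with FGF21 (adjusted p = 0.0676). A second probe set gave 0.64 with the antibody (adjusted p over probe sets 0.0178) and 0.36 with FGF21 (adjusted p 0.159). The antibody call held in all 15 fits without 1 array, and without control 34 and FGF21 36 together Trib3 passed with FGF21 too, at 0.53 ± 0.14 (adjusted p = 0.0243).

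Nupr1, a small stress-induced chromatin protein, went the other way. Nupr1 read 8.86, 8.78, 8.91, 8.54 and 9.07 with the antibody, 9.64, 8.51, 9.30, 8.78 and 8.94 with FGF21 and 9.63, 9.42, 9.73, 9.45 and 9.52 in the controls. All antibody animals lay below all controls, while FGF21 36 lay among the controls and the other 4 animals given FGF21 below them. Nupr1 differed by −0.72 ± 0.17 with the antibody (0.61-fold, adjusted p = 0.0257) and by −0.52 ± 0.17 with FGF21 (adjusted p = 0.0921). On its second probe set it passed with both, at −0.63 with the antibody (adjusted p over probe sets 0.0186) and −0.53 with FGF21 (adjusted p 0.0385). The antibody call was lost in 6 of the 15 fits without 1 array (aFGFR1/KLB 41, 42 and 44 and controls 31, 33 and 35), with an adjusted p of up to 0.0705. Nupr1 passed with FGF21 too without control 34 and FGF21 36, at −0.69 ± 0.15 (adjusted p = 0.00727).

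Ddit3, which encodes the pro-death factor CHOP, passed with neither treatment. Ddit3 read 9.0, 9.49, 9.49, 9.15 and 9.46 with the antibody, 9.28, 8.74, 9.13, 9.13 and 9.17 with FGF21 and 9.69, 9.65, 9.76, 9.12 and 9.59 in the controls, where control 34 was the lowest. It differed by −0.24 ± 0.14 with the antibody (adjusted p = 0.362) and by −0.47 ± 0.14 with FGF21 (adjusted p = 0.0555). Without control 34 and FGF21 36, the FGF21 value passed, at −0.63 ± 0.12 (adjusted p = 0.00401). A dimmer probe set of Ddit3 did not share this difference, at 0.06 ± 0.09 with the antibody and 0.07 ± 0.09 with FGF21. Ppp1r15a, the GADD34 subunit that directs eIF2 dephosphorylation, was at −0.01 ± 0.09 with the antibody and 0.13 ± 0.09 with FGF21. Atf3, a stress-induced repressor, was highest in FGF21 36 at 9.46 and in control 34 at 8.32, against 6.43 to 7.81 in the others.

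ATF4 binds with C/EBP partners at the composite element TGATGNAAN. On both strands these letters occurred in 7 of 24 windows of ATF4 genes (29.2%), in 1 of 21 windows of ER genes and in 3.95% of all windows. The sites of Trib3 and Nupr1, which moved in opposite directions, and of Asns, Chac1, Atf3 and Pck2, which did not pass, are printed on the gene's strand with the fixed letters in capitals. They lie at chr2:152344029-152344057 (− strand, Trib3), chr7:126625563-126625591 (− strand, Nupr1), chr6:7693214-7693242 (− strand, Asns), chr2:119351038-119351066 (+ strand, Chac1), chr1:191183426-191183454 (− strand, Atf3) and chr14:55540152-55540180 (+ strand, Pck2).
Trib3: ttagctcaggtTTaCATCAgccgggcggg
Nupr1: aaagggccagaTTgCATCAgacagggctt
Asns: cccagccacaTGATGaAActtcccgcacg
Chac1: cttccctgccgTTgCATCActcctgccag
Atf3: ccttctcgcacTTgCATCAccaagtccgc
Pck2: agccttcaaagTTaCATCAgtatcttaca
All but the Asns site read in the reverse orientation. The window of Trib3 (chr2:152344011-152344310, − strand) carries its site just after the start site, in capitals.
Trib3 promoter: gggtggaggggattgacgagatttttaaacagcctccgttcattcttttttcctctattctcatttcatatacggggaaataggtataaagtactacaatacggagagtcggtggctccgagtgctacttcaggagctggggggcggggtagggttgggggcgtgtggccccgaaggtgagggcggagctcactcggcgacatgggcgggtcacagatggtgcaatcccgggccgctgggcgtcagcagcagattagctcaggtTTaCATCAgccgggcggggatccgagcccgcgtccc
Of the 6 tested genes with the element, 1 rose and 1 fell with the antibody (2.69% and 2.49% of all genes) and 0 passed with FGF21 (6.32% of all genes). Their median log2 difference was 0.21 with the antibody (lowest −0.72, highest 0.81) and 0.47 with FGF21 (lowest −0.52, highest 0.77), beside −0.02 over all genes in each. The highest with FGF21 were Chac1 (0.77 ± 0.49) and Atf3 (0.71 ± 0.41), both with wide errors. The 13 tested ATF4 genes whose windows lacked the element had medians of 0.04 with the antibody and 0.12 with FGF21. With the macrophage covariate the median of the 6 was 0.22 with the antibody and 0.26 with FGF21. These medians were not tested. With control 34 and FGF21 36 left out, Trib3 rose and Nupr1 fell with both treatments. The window of Slc3a2 held none of the 3 motifs.

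The enzymes of serine, one-carbon and amino acid synthesis, which ATF4 raises together in many cell types, gave no rise that passed: of 9, 0 passed with the antibody, and 1, Psph, fell with FGF21 (3.68% of all genes fell). Psph, phosphoserine phosphatase, makes the last step of serine synthesis. Psph read 8.30, 8.35, 8.30, 8.36 and 8.15 with the antibody, 7.88, 8.18, 8.29, 8.13 and 8.26 with FGF21 and 8.53, 8.72, 8.65, 8.55 and 8.44 in the controls, so that every treated animal lay below every control. The log2 fold change was −0.43 ± 0.08 with FGF21 (0.74-fold, adjusted p = 0.00595) and −0.29 ± 0.08 with the antibody (adjusted p = 0.0534). Psph passed with the antibody too without control 34 and FGF21 36, at −0.29 ± 0.07 (adjusted p = 0.0135).

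Phgdh, the first enzyme of the same route, was at −0.33 ± 0.19 with the antibody (adjusted p = 0.373) and −0.41 ± 0.19 with FGF21 (adjusted p = 0.245). With the macrophage covariate Phgdh passed with FGF21, at −0.56 ± 0.15 (adjusted p = 0.0324). Psat1, which stands between them, was at −0.06 ± 0.37 with the antibody and 0.56 ± 0.37 with FGF21, and its 95% intervals include 0. Asns, asparagine synthetase and a standard ATF4 target, averaged 10.29 ± 0.15 with the antibody, 10.06 ± 0.22 with FGF21 and 10.14 ± 0.06 in the controls. The mitochondrial folate enzymes Shmt2 and Mthfd2 were at 0.04 and 0.18 with the antibody and at 0.06 and 0.12 with FGF21. Pck2, mitochondrial PEP carboxykinase, was at 0.04 with the antibody and 0.42 ± 0.19 with FGF21 (adjusted p = 0.225), and Cth, which makes cysteine, at 0.40 ± 0.15 with the antibody (adjusted p = 0.148) and 0.15 with FGF21.

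Aldh18a1 starts proline synthesis. It read 5.72, 6.09, 6.16, 5.93 and 6.25 with the antibody, 7.73, 5.96, 6.90, 6.81 and 6.49 with FGF21 and 6.01, 5.80, 5.53, 8.27 and 6.08 in the controls. The highest arrays were control 34 and FGF21 36. The log2 difference with FGF21 was 0.44 ± 0.43 on all arrays (adjusted p = 0.631) and 0.69 ± 0.19 without both (adjusted p = 0.0257). With the macrophage covariate it was −0.03 ± 0.18 (adjusted p = 0.945). Its dimmer probe sets above the filter did not share the rise on all arrays, at −0.08 ± 0.20 and −0.01 ± 0.13 with FGF21.

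Of the genes that restrain growth, Sesn2, a sestrin that dampens mTORC1, was at 0.15 ± 0.10 with the antibody and 0.27 ± 0.10 with FGF21 (adjusted p = 0.141). Its second probe set passed with FGF21, at 0.58 ± 0.12 (adjusted p over probe sets 0.0122), and with control 34 and FGF21 36 left out the first passed as well, at 0.26 ± 0.07 (adjusted p = 0.0282). Ddit4 (REDD1), another mTORC1 inhibitor, read 10.16, 10.35, 9.32, 10.25 and 10.49 with the antibody, 8.96, 9.0, 9.74, 10.10 and 9.13 with FGF21 and 9.86, 10.37, 10.07, 9.71 and 10.22 in the controls. It differed from control by 0.07 with the antibody and −0.66 ± 0.25 with FGF21 (adjusted p = 0.137), and the antibody stood 0.73 ± 0.25 above FGF21 (adjusted p = 0.227). Eif4ebp1, the translation repressor 4E-BP1, was at −0.11 with the antibody and −0.15 with FGF21.

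Set side by side, the arms differed little in their medians. With the antibody the 24 ER genes had a median log2 difference of 0.03 (1 higher, 0 lower) and the 21 tested ATF4 genes one of 0.07 (2 higher, 1 lower), beside −0.02 over all genes. With FGF21 the ER genes had a median of 0.04 (2 higher, 0 lower) and the ATF4 genes one of 0.13 (1 higher, 1 lower), beside −0.02 over all genes. The spread differed more: differences of ER genes ran from −0.29 to 0.49 with the antibody and from −0.10 to 0.67 with FGF21, and those of ATF4 genes from −0.72 to 0.81 with the antibody and from −0.66 to 0.77 with FGF21. The ATF4 genes that did not pass also had larger errors, with a median SE of 0.16 with the antibody and 0.17 with FGF21 against 0.10 for such ER genes in each, and the upper end of 0.77 is Chac1. Without control 34 and FGF21 36, 2 ATF4 genes rose and 2 fell with the antibody (19.0%, against 12.4% of all genes), and 4 rose and 3 fell with FGF21 (33.3%, against 16.2%). The 7 were Trib3, Aldh18a1, Slc3a2 and Sesn2, higher, and Ddit3, Nupr1 and Psph, lower. The groups did not overlap for 4 genes higher (Dnajb9, Herpud1, Trib3, Slc3a2) and 2 lower (Nupr1, Psph) with the antibody, 6 of 45 beside 8.61% of all genes (4.44% higher and 4.17% lower), and for 3 higher (Dnajb9, Xbp1, Slc3a2) and 1 lower (Psph) with FGF21, beside 5.25% (2.37% higher and 2.88% lower).

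**Figure D5:**
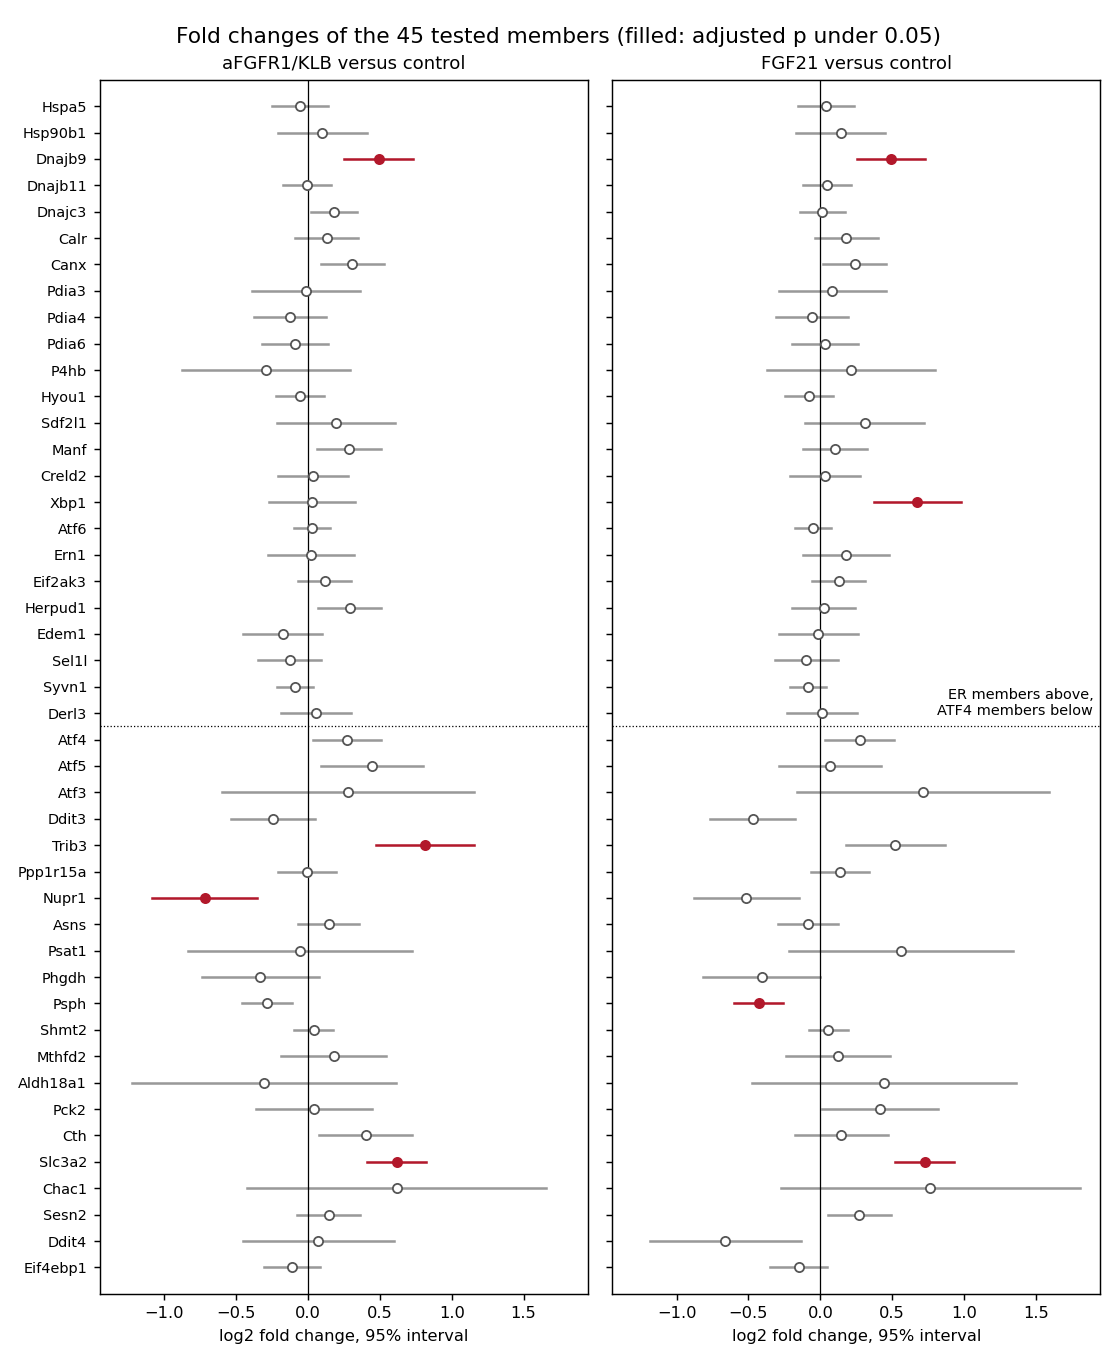
Log2 fold change over control with its 95% interval (horizontal axis) for the 45 tested genes, with the antibody on the left and FGF21 on the right, ER genes above the dotted line and ATF4 genes below it; filled red points passed at an adjusted p under 0.05. Most ER genes lie near 0, while the ATF4 genes reach further in both directions, Trib3 up to 0.81 and Nupr1 down to −0.72 with the antibody.

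Between the treatments, 0 of the 45 genes passed in the limma fit, against 0.372% of all genes. At an unadjusted p under 0.05, 5 were higher and 1 lower with the antibody than with FGF21, against 13.5% of all genes (7.42% higher and 6.07% lower). The 5 were Dnajc3, Herpud1, Atf5, Asns and Ddit4, at differences of 0.17, 0.27, 0.38, 0.23 and 0.73, and the lower one was Xbp1. On its probe set next in brightness Dnajc3 was at −0.07, and on its dimmer ones at 0.18, 0.058 and 0.185. Xbp1 was also the only gene whose groups did not overlap, beside 4.69% of all genes (2.39% higher and 2.3% lower). Without control 34 and FGF21 36, Xbp1 passed at −0.60 ± 0.12 (adjusted p = 0.0309), 1 of 45 beside 1.83% of all genes (1.03% lower), and it was the 1 gene to pass with the macrophage covariate too (0.782% of all genes lower).

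Genes of the same pathways outside the 47 are read against the shares over all genes, 2.69% higher and 2.49% lower with the antibody and 2.64% higher and 3.68% lower with FGF21. Of 31 other ER folding and oxidation genes, 2 rose with the antibody and 0 with FGF21. Ero1a, the oxidase that recharges protein disulfide isomerase, averaged 9.02 ± 0.15 with the antibody, 8.84 ± 0.10 with FGF21 and 8.56 ± 0.13 in the controls, a log2 fold change of 0.45 ± 0.08 with the antibody (adjusted p = 0.00748) and 0.28 ± 0.08 with FGF21 (adjusted p = 0.0612). Tmx4, an ER thioredoxin-like membrane protein, rose by 0.65 ± 0.14 with the antibody (adjusted p = 0.0176). Of 28 genes of ER translocation and N-glycosylation and 19 other degradation genes, 0 passed with either treatment. Of 21 other sensor and eIF2 genes, 1 rose with the antibody and 0 with FGF21: Tmbim6 (BAX inhibitor 1, an ER membrane protein that restrains IRE1), by 0.27 ± 0.05 (adjusted p = 0.0117).

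On the amino acid side, 2 of 16 aminoacyl-tRNA synthetases rose with the antibody, Gars by 0.30 ± 0.07 (adjusted p = 0.0219) and Eprs by 0.27 ± 0.07 (adjusted p = 0.0281). With FGF21, 0 passed, and Gars was at 0.22 ± 0.07 and Eprs at 0.19 ± 0.07. Of 9 amino acid transporters, 1 fell with the antibody, and 1 rose and 1 fell with FGF21. Slc1a5, the glutamine carrier ASCT2, fell by 0.53 ± 0.11 on the log2 scale with the antibody (adjusted p = 0.0141) and by 0.50 ± 0.11 with FGF21 (adjusted p = 0.0162). Slc38a2, the carrier SNAT2, was at 0.31 ± 0.13 with the antibody (adjusted p = 0.185) and rose by 0.50 ± 0.13 with FGF21 (adjusted p = 0.0294).

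Of 22 other genes linked to ATF4 or CHOP, 2 rose with each treatment. Got1, cytosolic aspartate aminotransferase, had the largest change of these lists, 1.23 ± 0.13 with the antibody (2.35-fold, adjusted p = 0.000331) and 0.99 ± 0.13 with FGF21 (1.99-fold, adjusted p = 0.000868). The autophagy gene Map1lc3b rose by 0.30 ± 0.06 with the antibody (adjusted p = 0.0141), and the autophagy receptor Sqstm1 by 0.36 ± 0.08 with FGF21 (adjusted p = 0.0139). Fgf21, which ATF4 can induce, averaged 6.33 ± 0.39 in the antibody group, 5.76 ± 0.45 in the FGF21 group and 5.72 ± 0.26 in the controls, at log2 differences of 0.61 ± 0.22 (adjusted p = 0.128) and 0.05 ± 0.22. Of 15 genes of the mitochondrial stress response, 1 rose with the antibody and 0 with FGF21: the matrix chaperone Hspd1 (HSP60), by 0.25 ± 0.07 (adjusted p = 0.0445). No gene of these lists passed between the treatments.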

How the data were processed

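Total RNA of 15 brown fat samples was measured on 1-colour arrays. The authors deposited, for each array, a linear intensity per probe set, made with RMA per the submitters' processing notes; the version and chip definition are not given in the sources used here. Array medians lay between 50.6 and 52.1. They were used as log2 values without another normalisation step. Of 45101 probe sets, 34958 carried 1 gene symbol in the platform annotation, 932 several and 9211 none listed. The brightest single-symbol probe set stood for each of 18194 genes, and the 13174 above the 40th percentile of mean brightness (log2 intensity of 5.06) were tested.

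A one-way model over all 15 arrays was fitted with limma (version 3.58.1, under R 4.3.3), with two-sided moderated tests from lmFit and eBayes and Benjamini-Hochberg adjustment within each comparison. Adjusted p-values are limma's throughout; those of other probe sets are adjusted over all probe sets above the filter. The fit was tested on simulated data. The members, the other pathway lists and the tests were chosen with earlier results of these data known. All members could be named, with values per sample for those that passed and for chosen sensors and factors, and of the other lists up to 4 genes per list that passed; the values per sample of Hsp90b1, Canx, Manf, Herpud1, Chac1, Ddit4 and Aldh18a1 are given because of what the arrays showed. Alternatives were other filters, probe set rules, offsets, centring, covariates, array weights and left-out arrays. Promoter windows and start sites are RefSeq's on GRCm38.p6.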

Additional observations from a re-analysis of the deposited data

Results flagged for a closer look

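In 18 of 135 groups of 5 animals (45 genes in 3 groups), 1 animal lay apart from the other 4 by more than Dixon's criterion (0.71 of the group's range), where chance flags about 1 in 20 groups. Of the 18, 13 were control 34. The share of such flags over all genes is not given here, so this count is not a result about these genes. Over all genes control 34 was the highest control for 31.4% and the lowest for 42.6%. It was high for Hsp90b1 (11.79, the other controls 10.86 to 11.0), Calr (12.36, others 11.8 to 11.89), Pdia3 (11.22, others 10.16 to 10.3), P4hb (11.67, others 10.14 to 10.47), Sdf2l1 (8.0, others 6.94 to 7.17), Creld2 (8.48, others 7.82 to 7.94), Eif2ak3 (8.44, others 8.02 to 8.05), Edem1 (9.71, others 9.06 to 9.24) and Aldh18a1 (8.27, others 5.53 to 6.07). It was low for Herpud1 (9.38, others 9.7 to 9.74), Atf5 (10.4, others 11.23 to 11.47), Ddit3 (9.12, others 9.59 to 9.76) and Eif4ebp1 (12.14, others 12.55 to 12.61). Of the 9 genes in which it was high, 8, all but Aldh18a1, belong to the ER set. Of the 4 in which it was low, 3, all but Herpud1, belong to the ATF4 set. This split has the same limit as the count, since no share of such flags over all genes is given. Its macrophage marker mean was 10.85 and its collagen marker mean 11.57; their part in these values was not tested.

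The other 5 were spread over animals: Dnajc3 in control 33 (9.4, low), Calr in aFGFR1/KLB 43 (12.01, low), Ddit3 in FGF21 37 (8.74, low), Psph in aFGFR1/KLB 45 (8.15, low) and Ddit4 in aFGFR1/KLB 43 (9.32, low). FGF21 36, which had the highest macrophage mean of all arrays, was flagged for 0 of the 45 genes.

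The effect of the antibody differed from that of FGF21 on 2 of the 4 probe sets of Xbp1, by −0.65 and −0.72 on the log2 scale in limma's test of the difference (adjusted p over all probe sets 0.0104 and 0.0162). On the brightest probe set the same difference of −0.65 missed the threshold (adjusted p = 0.0608).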

How the results depend on the processing

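No paired analysis was possible because the replicate numbers of the groups (31 to 45) do not repeat. Counts of members that passed, 4 with the antibody and 4 with FGF21 against control and 0 between the treatments, depended on the arrays used. Leaving out 1 array at a time gave 2 to 7 with the antibody (2 without aFGFR1/KLB 42 or control 33, 7 without control 34), 4 to 13 with FGF21 (13 without control 34, 8 without FGF21 36) and 0 to 1 between the treatments (1, Xbp1, without control 33 or control 34). Without control 34 and FGF21 36 together the counts were 10, 13 and 1, against 12.4%, 16.2% and 1.83% of all genes in that fit. With the macrophage mean as a covariate they were 9, 8 and 1, against 12.7%, 10.3% and 1.17%. With array weights they were 14, 17 and 2. The share of all genes that passed changes with the setting, and for the other alternatives it is not given here. Those counts are therefore not a result about these genes. Centring on 42 ribosomal protein genes, which shifts the median gene by 0.14 with the antibody, left 1 with the antibody and 2 with FGF21; fitting only the 10 arrays compared left 2 with FGF21 and gave 1 between the treatments, as did the mean of all probe sets of a gene. The median of the ATF4 genes with the antibody, 0.07, became 0.21 after ribosomal centring and 0.17 without control 34, alone or with FGF21 36, and between the treatments it became 0.11 after ribosomal centring. Over the fits without 1 array, medians of ER genes ran from −0.005 to 0.129 with the antibody, from 0.019 to 0.148 with FGF21 and from −0.065 to −0.003 between the treatments, and those of ATF4 genes from 0.053 to 0.165, from 0.084 to 0.21 and from −0.064 to 0.062. The other 209 recomputed counts and medians stayed close to these values. Each of the 6 genes that passed against control kept its direction in all alternatives in the comparison where it passed. Xbp1 turned in several with the antibody, where it had not passed. Other genes that did not pass turned as well. After ribosomal centring 11 of 45 turned with the antibody. Without control 34 and FGF21 36 together 8 of 45 turned with the antibody and 3 with FGF21. With the macrophage covariate 0 turned with the antibody and 9 with FGF21. After ribosomal centring the adjusted p was 0.0511 for Trib3, 0.121 for Dnajb9 and 0.125 for Nupr1 with the antibody and 0.258 for Dnajb9 and 0.34 for Psph with FGF21; with only 10 arrays Dnajb9 with FGF21 had 0.0699. Apart from fits with fewer arrays, the cause of these changes was not tested. Values near the filter, such as Cth at 5.14 to 6.35, lie close to the background of the array.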
